A study of Mus musculus with 20 samples.

Results

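The blood-brain barrier and vessel genes described here are 10 genes: claudin 5 (Cldn5), occludin (Ocln), zonula occludens 1 (Tjp1), Pecam1, the glucose transporter Slc2a1, P-glycoprotein (Abcb1a), Mfsd2a, the metalloproteinases Mmp9 and Mmp2, and the pericyte receptor Pdgfrb. They were chosen by name, not by their values, out of 20972 gene symbols that could be assigned to the array, and 11 of its 55681 probes carry an accession of these genes, 2 of them for Ocln and 1 for each of the others. Brains of 20 male C57BL/6J mice were profiled on single-colour Agilent arrays, in 4 groups of 5 mice. All mice carried a transgene that places a tetracycline-controlled transcription factor under the GFAP promoter, which is active in astrocytes, and all received doxycycline at 100 mg/kg for 7 days. The Tat+ mice additionally carried the HIV-1 Tat gene under a tetracycline-responsive promoter, and the Tat− mice did not. In each genotype 5 mice were injected with Meth (methamphetamine, 2 mg/kg) and 5 with saline over the same 7 days, and the groups are called Tat−/Sal (Tat-Meth- in the sample labels), Tat−/Meth (Tat-Meth+), Tat+/Sal (Tat+Meth-) and Tat+/Meth (Tat+Meth+). By the study's methods, every mouse, the saline groups included, then had 7 days of abstinence and a 1 mg/kg Meth challenge before the caudate putamen was taken, at an age of 3 to 5 months. The labels instead give the left hemisphere, taken 24 h after the last injection from mice of 6 to 7 weeks. Tat was driven from astrocytes in these mice, and no probe for Tat was checked, so that the genotype of an array rests on its label.

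The blood-brain barrier is formed by the endothelial cells of brain capillaries, which are sealed to each other by tight junctions and carry a particular set of transporters. Claudin 5 and occludin span the membrane at the junction, and zonula occludens 1 anchors them to the actin skeleton. Slc2a1 brings glucose into the brain, P-glycoprotein pumps drugs and other lipophilic compounds back into the blood, and Mfsd2a takes up lipids carrying docosahexaenoic acid and keeps transcytosis low. Pericytes, which respond to platelet-derived growth factor through Pdgfrb, wrap the capillaries, and the gelatinases Mmp2 and Mmp9 can cleave junction proteins and the basement membrane. Several of these genes are not exclusive to vessels, as Tjp1 is used by many cell types and Slc2a1 also by astrocytes.

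Values are log2 signals of single probes, scaled so that all arrays share the same 75th percentile. They compare groups for one probe and do not rank genes against each other. Each group mean is given with the SD of 5 mice, and each log2 fold change with its standard error from a limma fit of all 4 groups. A gene passed the test at a Benjamini-Hochberg adjusted p under 0.05 over 15102 genes tested, and was called changed if it also differed by more than 2-fold. Of the 10 genes, 9 were bright enough to be tested, with a group mean of 6 or more. Mmp9 did not. Its single probe lay between 2.64 and 3.74 and was not well above background on any of the 20 arrays, so that no difference in Mmp9 was measurable here. Mmp2 reached the limit only through the Tat−/Meth group, and its probe was well above background on 16 arrays. The brighter Ocln probe and the probes of the other 7 genes were well above background on all 20 arrays, and none was saturated.

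The arrays lay on 3 slides that were scanned separately, and slide 1 held all 5 Tat−/Meth arrays and no others. Slide 2 held the 5 Tat−/Sal arrays with 3 of Tat+/Meth, and slide 3 the other 2 of Tat+/Meth with the 5 Tat+/Sal arrays. Setting Tat−/Meth against another group thus also sets slide 1 against other slides, and slide and group cannot be told apart there. The bright corner control spots, which carry no mouse RNA, read 14.67 to 15.06 log2 units on slide 1 and 16.79 to 17.44 on the others. In Tat−/Meth vs. Tat−/Sal 50.3% of all genes passed the test, and the scaling decided in which direction. Of the genes that passed, 69.6% were higher in Tat−/Meth after scaling to the 75th percentile, 71.4% after quantile normalization and 67.2% after median scaling, but 1.72% without scaling. The all-gene median of the log2 fold change was 0.14, 0.15, 0.26 and -0.29 under these settings, and values of the 9 tested genes relative to this median are given below for both comparisons with Tat−/Meth. These are tissue samples, in which fewer cells of a type and less RNA per cell cannot be told apart.

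**Figure D1:**
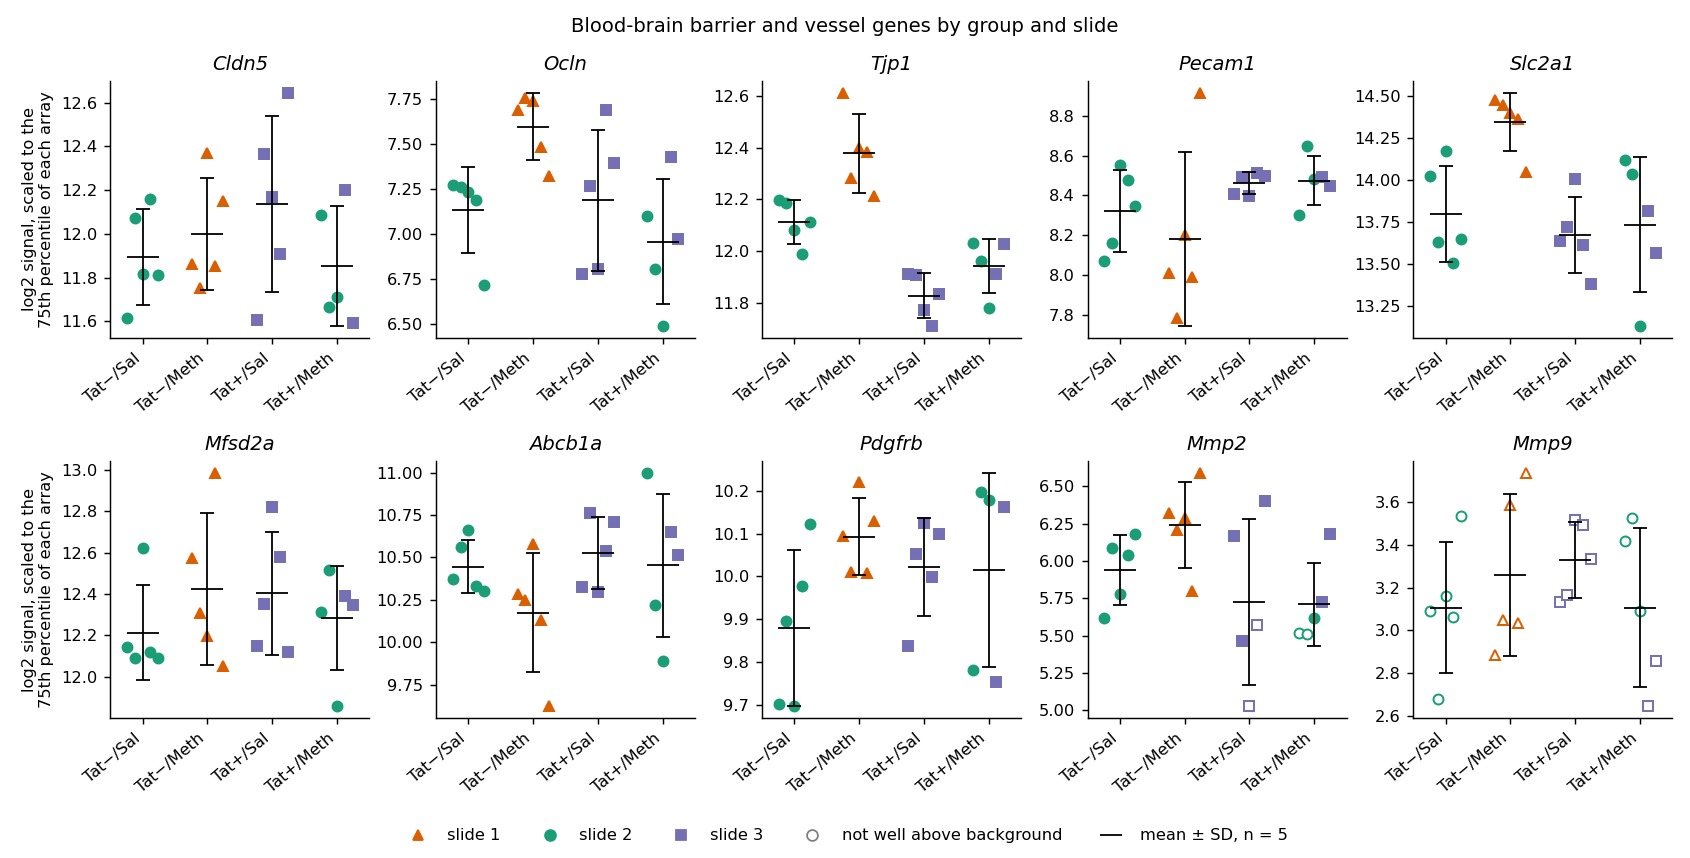
Log2 signal (vertical axes, with the 75th percentile equal on all arrays) of the brightest probe of each gene in the 4 groups (horizontal axes), with 1 point per mouse, its shape and colour giving the slide, open points marking spots not well above background, and bars giving mean ± SD of 5 mice. The 5 Tat−/Meth points of Ocln and Tjp1 lie above all 5 Tat−/Sal points, whereas all 20 Mmp9 points are open.

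Among the junction genes, Tjp1 and Ocln were highest in Tat−/Meth, and Cldn5 passed the test in no comparison. The Tjp1 probe read 12.20, 12.18, 12.08, 11.99 and 12.11 in Tat−/Sal, 12.61, 12.28, 12.40, 12.38 and 12.21 in Tat−/Meth, 11.91, 11.91, 11.77, 11.71 and 11.83 in Tat+/Sal, and 12.03, 11.96, 11.78, 11.91 and 12.03 in Tat+/Meth. All 5 Tat−/Meth arrays were above every other array, and the 5 Tat+/Sal arrays lay under the lowest of Tat−/Sal. The group means were 12.11 ± 0.09 in Tat−/Sal, 12.38 ± 0.15 in Tat−/Meth, 11.83 ± 0.09 in Tat+/Sal and 11.94 ± 0.10 in Tat+/Meth (SD, n = 5). These are small differences on a tight spread, the largest, between Tat−/Meth and Tat+/Sal, being of 0.55 log2 units.

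Ocln read 7.27, 7.26, 7.23, 7.19 and 6.72 in Tat−/Sal, 7.69, 7.76, 7.74, 7.49 and 7.32 in Tat−/Meth, 6.78, 7.27, 6.81, 7.69 and 7.40 in Tat+/Sal, and 7.10, 6.80, 6.49, 7.43 and 6.97 in Tat+/Meth. The Tat−/Meth arrays did not overlap with those of Tat−/Sal, but they did with both Tat+ groups. The means were 7.14 ± 0.24, 7.60 ± 0.19, 7.19 ± 0.39 and 6.96 ± 0.35, in the same order. The second Ocln probe was dim, between 4.60 and 5.96, and well above background on 9 of 20 arrays. It did not share the difference, since its mean was 5.35 ± 0.32 in Tat−/Sal and 5.26 ± 0.15 in Tat−/Meth (log2 fold change -0.09 ± 0.21, limma, adjusted p = 0.772).

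Cldn5, the main claudin of brain endothelium, read 11.61, 12.07, 11.82, 12.16 and 11.81 in Tat−/Sal, 11.86, 11.75, 12.37, 11.85 and 12.15 in Tat−/Meth, 11.61, 12.37, 12.17, 11.91 and 12.65 in Tat+/Sal, and 12.09, 11.66, 11.71, 12.20 and 11.59 in Tat+/Meth. All 4 groups overlapped. Its means lay between 11.85 and 12.14, with an SD of 0.22 to 0.40 inside the groups.

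Of the 4 genes that passed the test in any comparison, Mmp2 had no entry among the promoter sequences used, and Tjp1, Ocln and Slc2a1 are shown with Cldn5, which did not pass, as the stretch of 250 bases before the annotated start of transcription. The sequences are from RefSeq (assembly GRCm38.p6, a later build than the one the array was annotated on), in which 6 of the 10 genes had an entry, and are written 5′ to 3′ on the strand of the gene. Capitals mark the motifs searched for on both strands, which were the GC box GGGCGG, the AP-1 site TGANTCA, the cyclic AMP response element TGACGTCA, the NF-kB consensus site, the hypoxia response element core ACGTG and the TATA box TATAAA. Ocln has a second annotated start, whose window overlaps the one shown.
Tjp1 (chr7:65371245-65371494, minus strand): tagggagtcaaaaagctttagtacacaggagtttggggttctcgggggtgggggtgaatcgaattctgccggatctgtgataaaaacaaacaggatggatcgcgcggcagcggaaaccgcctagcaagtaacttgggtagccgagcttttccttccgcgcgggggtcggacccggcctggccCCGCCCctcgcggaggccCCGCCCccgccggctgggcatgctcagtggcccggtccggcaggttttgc
Ocln (chr13:100552719-100552968, minus strand): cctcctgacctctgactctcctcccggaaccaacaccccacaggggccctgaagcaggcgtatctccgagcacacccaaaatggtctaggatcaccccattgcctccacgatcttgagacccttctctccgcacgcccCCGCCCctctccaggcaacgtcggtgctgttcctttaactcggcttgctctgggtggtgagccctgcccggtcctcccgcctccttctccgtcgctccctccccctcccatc
Slc2a1 (chr4:119108495-119108744, plus strand): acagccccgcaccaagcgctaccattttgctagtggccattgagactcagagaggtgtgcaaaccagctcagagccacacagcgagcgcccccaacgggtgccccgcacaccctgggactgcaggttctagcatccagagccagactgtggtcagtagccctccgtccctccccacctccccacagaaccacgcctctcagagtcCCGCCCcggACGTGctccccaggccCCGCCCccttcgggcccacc
Cldn5 (chr16:18776597-18776846, plus strand): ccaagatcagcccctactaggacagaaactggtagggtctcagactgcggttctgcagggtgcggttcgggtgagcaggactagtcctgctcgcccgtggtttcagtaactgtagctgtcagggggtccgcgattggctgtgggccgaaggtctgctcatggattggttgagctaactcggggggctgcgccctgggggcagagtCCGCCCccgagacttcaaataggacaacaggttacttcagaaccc
All 4 stretches hold a GC box, as do 32.7% of the 32851 promoter windows of this length. There are 2 in Tjp1, between bases 68 and 63 and between bases 50 and 45 before the start, and 2 in Slc2a1, between bases 45 and 40 and between bases 20 and 15. Ocln and Cldn5 hold 1 each. Slc2a1 also holds the hypoxia response element core, found in 16.6% of windows, at bases 36 to 32 before the start. The AP-1 site, the cyclic AMP response element, the NF-kB site and the TATA box, present in 6.75%, 1.55%, 0.140% and 12.4% of windows, had no match in these 4 stretches. The matches are letters in a window and no measurement of binding.

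Pecam1, the adhesion molecule between endothelial cells, read 8.07, 8.16, 8.55, 8.48 and 8.35 in Tat−/Sal, 8.01, 7.79, 8.20, 7.99 and 8.92 in Tat−/Meth, 8.41, 8.49, 8.40, 8.51 and 8.50 in Tat+/Sal, and 8.30, 8.65, 8.48, 8.49 and 8.45 in Tat+/Meth. In Tat−/Meth 4 arrays were at 8.20 or below and replicate 5 was the highest of all 20. The means were 8.32 ± 0.20, 8.18 ± 0.44, 8.46 ± 0.06 and 8.47 ± 0.12, in the same order.

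Of the transporters, Slc2a1 passed the test in both comparisons with Tat−/Meth described below, and Abcb1a and Mfsd2a in none. Slc2a1 read 14.02, 13.63, 14.17, 13.50 and 13.65 in Tat−/Sal, 14.47, 14.45, 14.40, 14.36 and 14.05 in Tat−/Meth, 13.64, 13.72, 14.004, 13.61 and 13.38 in Tat+/Sal, and 14.12, 14.04, 13.13, 13.81 and 13.56 in Tat+/Meth. In Tat−/Meth 4 of 5 arrays were above every array of the other groups, and replicate 5 was below the highest array of Tat−/Sal and of Tat+/Meth. The means were 13.80 ± 0.29, 14.35 ± 0.17, 13.67 ± 0.23 and 13.73 ± 0.40.

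Abcb1a lay between 9.62 and 10.998 over the 20 arrays, with means of 10.45 ± 0.16 in Tat−/Sal, 10.17 ± 0.35 in Tat−/Meth, 10.53 ± 0.21 in Tat+/Sal and 10.45 ± 0.42 in Tat+/Meth. Mfsd2a lay between 11.86 and 12.98, with means of 12.21 ± 0.23, 12.42 ± 0.37, 12.40 ± 0.30 and 12.28 ± 0.25. The groups overlapped for both genes.

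Pdgfrb, which marks pericytes and other mural cells, had the smallest range over the 20 arrays, from 9.70 to 10.22. Its means were 9.88 ± 0.18, 10.09 ± 0.09, 10.02 ± 0.11 and 10.01 ± 0.23. Mmp2, a gelatinase made in brain mostly by cells of the vessel wall and by glia, was close to background. It read 5.62, 6.09, 5.78, 6.04 and 6.18 in Tat−/Sal, 6.32, 6.21, 6.29, 5.80 and 6.59 in Tat−/Meth, 6.17, 5.46, 5.03, 5.57 and 6.40 in Tat+/Sal, and 5.52, 5.51, 5.62, 5.73 and 6.18 in Tat+/Meth. All groups overlapped, and the probe was well above background on all 5 arrays of each Tat− group and on 3 of 5 in each Tat+ group.

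For Meth without Tat, Tat−/Meth was set against Tat−/Sal. Slc2a1 rose by 0.55 ± 0.17 (adjusted p = 0.0121), Ocln by 0.46 ± 0.18 (adjusted p = 0.0407) and Tjp1 by 0.26 ± 0.07 log2 units (adjusted p = 0.00524), by limma with Benjamini-Hochberg adjustment and n = 5 per group. These 3 of 9 tested genes, 33.3%, compare with 35% of all genes that passed as higher. The rise was of 1.46-fold for Slc2a1, 1.38-fold for Ocln and 1.20-fold for Tjp1, and none of the 9 genes was called changed above 2-fold, as 6.85% of all genes were. Adjusted p-values of the other 6 genes were between 0.0865 for Pdgfrb (0.21 ± 0.10) and 0.645 for Cldn5 (0.10 ± 0.18). Mmp2 (0.30 ± 0.22) and Mfsd2a (0.21 ± 0.17) had positive values, and Abcb1a (-0.27 ± 0.18) and Pecam1 (-0.14 ± 0.15) negative ones. For Cldn5 the 95% confidence interval ran from -0.27 to 0.48.

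The groups did not overlap for 2 of the 9 genes, Ocln and Tjp1, and for 24.7% of all genes with the higher values in Tat−/Meth. The median over the 9 genes, with Mmp2 included, was 0.21, beside 0.14 over all genes tested. Relative to that all-gene median, Slc2a1 was higher by 0.40 to 0.41, Ocln by 0.32 to 0.34 and Tjp1 by 0.07 to 0.13 under the 4 scalings, while Mmp2 was at 0.15 to 0.16, Pdgfrb at 0.07 to 0.08, Mfsd2a at 0.02 to 0.07, Cldn5 at -0.08 to -0.03, Pecam1 at -0.28 to -0.17 and Abcb1a at -0.43 to -0.41. Without scaling Tjp1 turned to -0.16 (adjusted p = 0.291), Slc2a1 stood at 0.13 (adjusted p = 0.585) and Ocln at 0.04 (adjusted p = 0.888), whereas Abcb1a fell by 0.69 (adjusted p = 0.0121) and Pecam1 by 0.56 (adjusted p = 0.00504). Of all genes 7259 of 15121 passed without scaling, and only 1.72% of these were higher. The mean over both Ocln probes gave 0.19 (adjusted p = 0.395), and Ocln missed the threshold when any of 6 arrays was left out (adjusted p of up to 0.116). Median scaling left Tjp1 at 0.39 with an adjusted p of 0.117. Pecam1 rested on 1 array. Without Tat−/Meth replicate 5 it fell by 0.33 log2 units (adjusted p = 0.0103). Pdgfrb passed without Tat−/Sal replicate 5, at 0.27 (adjusted p = 0.0336).

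**Figure D2:**
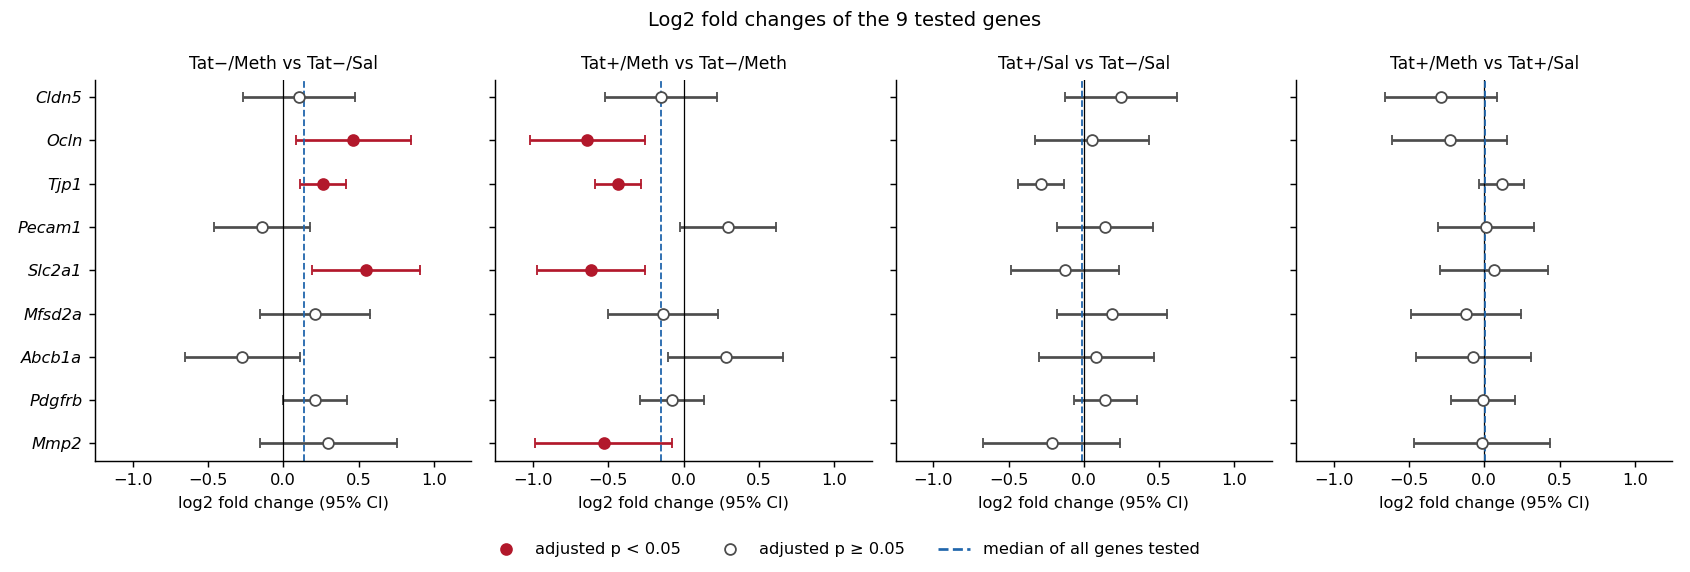
Log2 fold change (horizontal axes) with its 95% confidence interval from limma for the 9 tested genes (vertical axis) in 4 comparisons of 5 with 5 mice, filled where the adjusted p was under 0.05, with a dashed line at the median of all genes tested. Slc2a1, Ocln and Tjp1 are filled on the higher side in Tat−/Meth vs. Tat−/Sal. With Mmp2, which was bright enough for testing only in Tat−/Meth, they are filled on the lower side in Tat+/Meth vs. Tat−/Meth, and no gene is filled in the other comparisons.

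**Figure D3:**
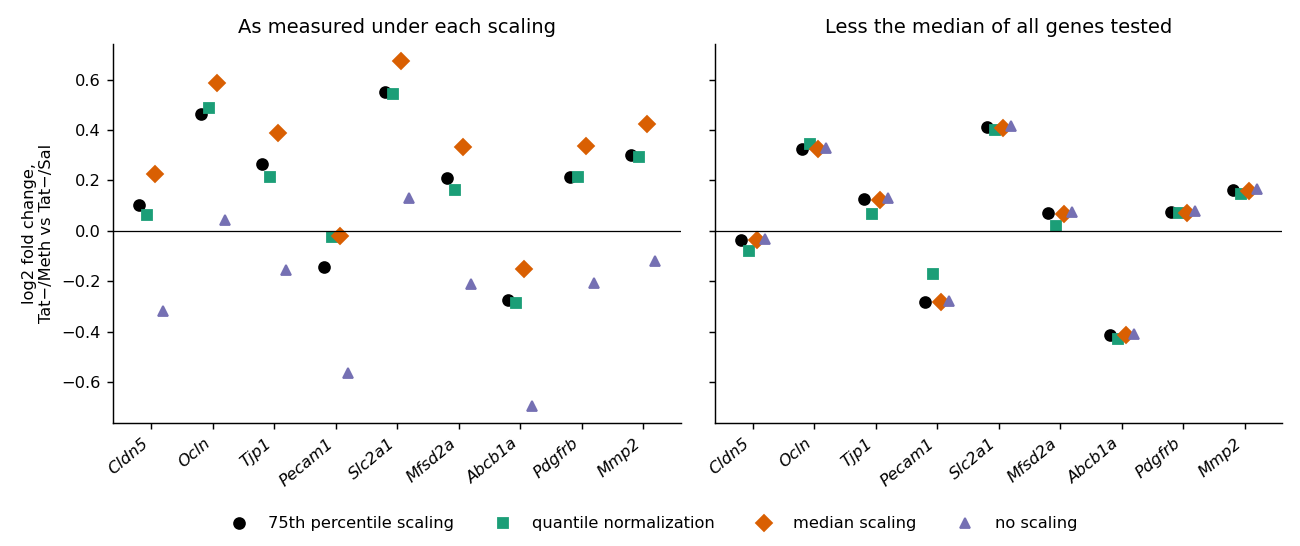
Log2 fold change in Tat−/Meth vs. Tat−/Sal (vertical axis) of the 9 tested genes (horizontal axes) under 4 scalings of the arrays, as measured on the left and less the median of all genes under the same scaling on the right. Without scaling all values on the left move down, by which Tjp1 turns from 0.26 to -0.16, and on the right the 4 symbols of Slc2a1 lie between 0.40 and 0.41.

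With Meth given to both genotypes, Tat+/Meth was compared with Tat−/Meth. This comparison shares the Tat−/Meth arrays with the previous one. Tjp1 fell by 0.44 ± 0.07 (adjusted p = 6.11e-05), Slc2a1 by 0.61 ± 0.17 (adjusted p = 0.00548), Ocln by 0.64 ± 0.18 (adjusted p = 0.00624) and Mmp2 by 0.53 ± 0.22 log2 units (adjusted p = 0.0447) by limma. Mmp2 had entered the test only through its higher values in Tat−/Meth, so that its fall was favoured by the limit on dim genes. Leaving it aside, 3 of 8 genes fell, beside 38.5% of all genes that passed as lower. No gene of the 9 changed above 2-fold, which 7.22% of all genes did, and the largest change was 1.56-fold, for Ocln. Mmp2, near background, missed the threshold when any of 11 of the 20 arrays was left out (adjusted p of up to 0.105). Pecam1 (0.29 ± 0.15) and Abcb1a (0.28 ± 0.18) had positive values, with adjusted p of 0.107 and 0.202, and Pecam1 without Tat−/Meth replicate 5 was higher by 0.48 (adjusted p = 0.000504). Abcb1a passed without Tat+/Meth replicate 3, at 0.42 (adjusted p = 0.0471). Cldn5 (-0.15 ± 0.18), Mfsd2a (-0.14 ± 0.17) and Pdgfrb (-0.08 ± 0.10) did not pass.

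The median over all genes was -0.15 here, and the median over the 9 genes, Mmp2 included, was also -0.15. Of the genes that passed, 29.3% were higher in Tat+/Meth, 24.2% after median scaling and 94.2% without scaling. Relative to the median of all genes, Ocln stood at -0.53 to -0.49, Slc2a1 at -0.47 to -0.43, Mmp2 at -0.40 to -0.38 and Tjp1 at -0.29 to -0.21 under the 4 scalings. Abcb1a stood at 0.43 to 0.46 and Pecam1 at 0.33 to 0.45, and Pdgfrb, Cldn5 and Mfsd2a between 0.00 and 0.09. Without scaling no gene of the 9 passed as lower, with Slc2a1 at -0.27 (adjusted p = 0.264), Ocln at -0.30 (adjusted p = 0.316), Tjp1 at -0.10 (adjusted p = 0.566) and Mmp2 at -0.19 (adjusted p = 0.570). Instead 3 passed as higher, namely Pecam1 at 0.63 (adjusted p = 0.00260), Abcb1a at 0.62 (adjusted p = 0.0287) and Pdgfrb at 0.26 (adjusted p = 0.0299). Of all genes 5617 of 15121 passed without scaling, 94.2% of them as higher. The mean over both Ocln probes gave -0.35 (adjusted p = 0.107). Tjp1 was the only one of the 9 genes whose groups did not overlap, with all 5 Tat+/Meth arrays below every Tat−/Meth array, as for 26.9% of all genes.

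In the comparisons without Tat−/Meth none of the 9 genes passed. For Tat with saline injections, Tat+/Sal vs. Tat−/Sal, 0 of 9 passed by limma, beside 1.42% of all genes. An unadjusted p under 0.05 was reached by 1 of 9, beside 20.5% of all genes. Tjp1 came closest, with no overlap of the groups, as for 3.01% of all genes. It stood at -0.29 ± 0.07 log2 units with an adjusted p of 0.0513, just above the threshold. It passed when slide was a random block (-0.28, adjusted p = 0.00637), a fit in which 2326 genes passed in place of 214. In that fit the correlation of arrays within a slide was -0.062, so that it made no allowance for a difference between slides. The Tat+/Sal and Tat−/Sal arrays lay on slides 3 and 2. A fit with a fixed slide term, made on the 3 groups that share slides, gave -0.33 with an adjusted p of 0.872, in a fit in which no gene passed. Leaving out each array in turn moved the value from -0.32 to -0.26 and the adjusted p from 0.0414 to 0.145. Cldn5 stood at 0.24 ± 0.18 (adjusted p = 0.458). Above 2-fold 0.0199% of all genes were called changed, and 0 of the 9.

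For Meth with Tat, Tat+/Meth vs. Tat+/Sal, 0 of 9 genes passed by limma, beside 0% of all genes. None of the 9 had an unadjusted p under 0.05, where 12.2% of all genes lay. The values ran from -0.29 for Cldn5 (SE 0.18, adjusted p = 0.528) to 0.11 for Tjp1. Within slide 3, which held 2 Tat+/Meth and 5 Tat+/Sal arrays, Cldn5 stood at -0.24. Tat+/Meth vs. Tat−/Sal, which differ in both the Tat gene and the daily injections, gave 0 of 9 by limma, beside 0% of all genes. Tjp1 was the 1 gene of the 9 at an unadjusted p under 0.05 (-0.17 ± 0.07, adjusted p = 0.640), a limit that 7.79% of all genes met. Within slide 2 its value was -0.19.

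The interaction asked whether the difference between Meth and saline was unlike in the 2 genotypes, and negative values stand for a lower difference with Tat. It holds the Tat−/Meth arrays, which were those of slide 1, so that slide and group cannot be told apart here either. Ocln passed, at -0.69 ± 0.26 (adjusted p = 0.0419, limma), with a difference of Meth from saline of 0.46 without Tat and -0.23 with Tat. This is 1 of 9 genes, beside 23.6% of all genes that passed as lower, and it was not among the 7.44% called changed above 2-fold. Slc2a1 stood at -0.49 ± 0.24 (adjusted p = 0.123), Cldn5 at -0.39 ± 0.25 (adjusted p = 0.237) and Tjp1 at -0.15 ± 0.10 (adjusted p = 0.266), so that a difference in the Meth effect between genotypes was not shown for these. The Ocln value lost its call when any of 11 arrays was left out (adjusted p of up to 0.0803), and the mean over both probes gave -0.28 (adjusted p = 0.409). Without scaling Ocln stood at -0.21 (adjusted p = 0.622), and Pecam1 passed in its place at 0.64 (adjusted p = 0.0249, limma). Of all genes 5953 of 15121 passed in that fit, 99.2% of them as higher.

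The other genes of the barrier were taken from 6 lists of vessel and barrier genes. In Tat−/Meth vs. Tat−/Sal each list held genes in both directions, and the medians lay between 0.11 and 0.25, beside 0.14 over all genes tested, of which 35% passed as higher and 15.3% as lower. The rises named here depended on the scaling, since without it Ctnnd1, Lsr, Art3 and Cspg4 turned negative and Itm2a, Abcc4, Abcc5, Slc40a1, Ndp, Plat and Mmp15 stood between 0.01 and 0.18 and did not pass. Of the tight and adherens junction and adhesion genes, 8 of 23 tested rose and 2 fell (median 0.15). Ctnnd1, which encodes p120 catenin of adherens junctions, rose by 0.32 ± 0.07, and Lsr, angulin-1 of tricellular junctions, by 0.37 ± 0.08, whereas Selp, the adhesion molecule P-selectin, fell by 1.70 ± 0.16 log2 units. Cldn3 and the adhesion molecule Sele were not well above background on any array.

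Of the endothelial identity genes 7 of 25 rose and 3 fell (median 0.18). Itm2a rose by 0.53 ± 0.13, and Slco1c1, the transporter of thyroxine, fell by 0.48 ± 0.11. Kdr, the main receptor of VEGF, fell by 0.95 ± 0.13 with its brighter probe, but the second Kdr probe stood at 0.06 (adjusted p = 0.840), and the second Slco1c1 probe at -0.02 (adjusted p = 0.900), although both were well above background on all 20 arrays. The change of these genes thus differed by probe.

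Of the other barrier transporters 10 of 30 rose and 3 fell (median 0.15). Abcc4 rose by 0.60 ± 0.11 and Slc40a1, the iron exporter ferroportin, by 0.47 ± 0.09. Abcc5 rose by 0.46 ± 0.06 with its brightest probe, while its other 3 probes stood between -0.24 and 0.07 and did not pass. Of the mural cell genes 3 of 18 rose and 1 fell (median 0.11). Art3 rose by 0.30 ± 0.09 and Cspg4, the NG2 proteoglycan, by 0.28 ± 0.11, which missed the threshold when any of 5 arrays was left out (adjusted p of up to 0.0817), and Tagln, the smooth muscle protein transgelin, fell by 1.15 ± 0.16.

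Of the angiogenic and barrier-inducing signals 7 of 31 rose and 2 fell (median 0.19). Ndp, which encodes the ligand norrin, rose by 0.43 ± 0.07, and Lrp5, a co-receptor of norrin and Wnt, fell by 1.28 ± 0.08. Axin2, a target of Wnt signals, fell by 0.46 ± 0.09 with the probe that was well above background on all arrays, while a dimmer one stood at 1.48 (adjusted p = 0.0156, well above background on 8 arrays). Of the other metalloproteinases and their inhibitors 7 of 19 rose and 2 fell (median 0.25). Plat, the tissue plasminogen activator, rose by 0.46 ± 0.08 and Mmp15 by 0.44 ± 0.10, and Adam12 fell by 1.14 ± 0.13, while its other 2 probes were well above background on 0 and 1 arrays.

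In Tat+/Meth vs. Tat−/Meth these 6 lists held 1 to 4 genes that rose and 3 to 10 that fell, with medians from -0.23 to -0.10 beside -0.15 over all genes, of which 16% passed as higher and 38.5% as lower. Without scaling, 94.2% of the genes that passed in this comparison were higher. In the transporter list Abcc5 fell by 0.46 ± 0.06 with its brightest probe (limma, adjusted p = 4.26e-06). The other Abcc5 probes had not passed in Tat−/Meth vs. Tat−/Sal. Slc16a1, the lactate and pyruvate carrier, rose by 2.49 ± 0.39 log2 units (limma, adjusted p = 3.54e-05). Slc16a1 was low in Tat−/Meth, at a mean of 7.24 against 9.19 in Tat−/Sal, and fell by 1.95 in Tat−/Meth vs. Tat−/Sal (adjusted p = 0.000465). In Tat+/Sal vs. Tat−/Sal 1 gene of the 6 lists passed, the growth factor Vegfb (0.32 ± 0.07, adjusted p = 0.0356), which fell short of the threshold with slide as a fixed block (0.19, adjusted p = 0.875) and when any of 6 arrays was left out (adjusted p of up to 0.128). No list gene passed in Tat+/Meth vs. Tat+/Sal or in Tat+/Meth vs. Tat−/Sal, and neither did any other gene tested.

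**Figure D4:**
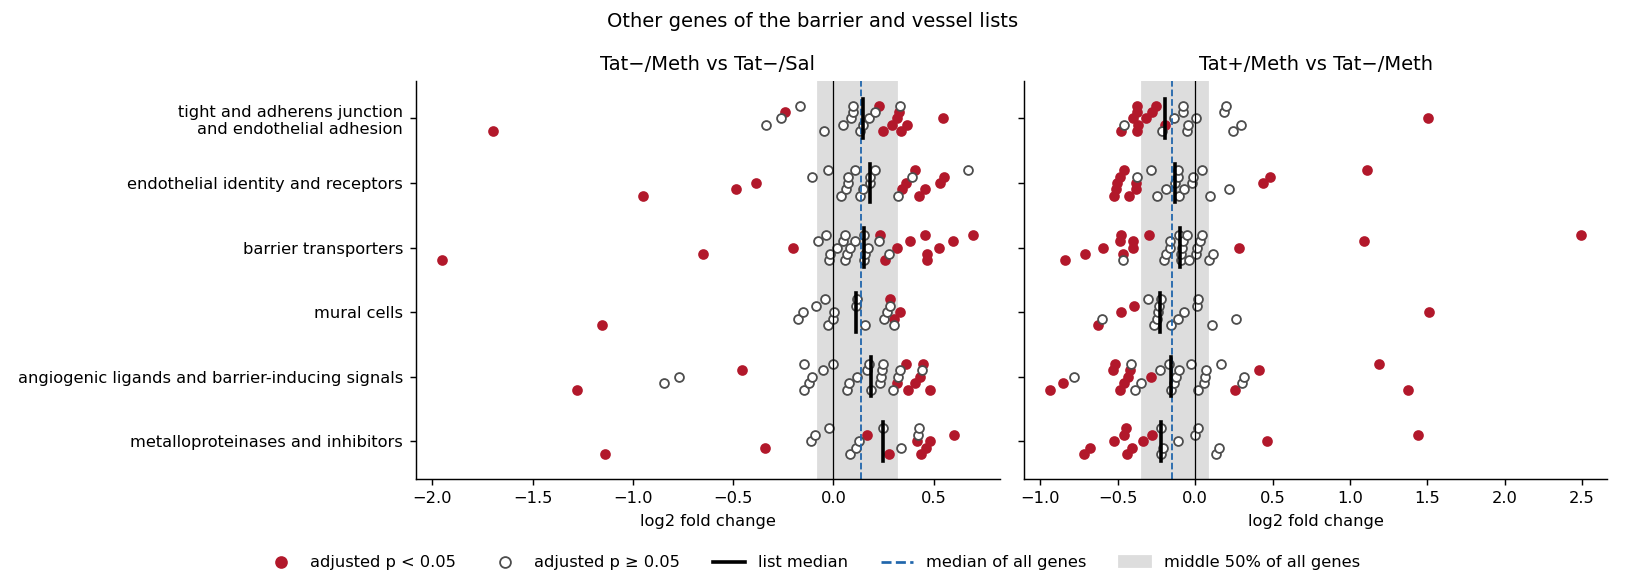
Log2 fold change (horizontal axes) of every tested gene of 6 lists (vertical axis) in 2 comparisons, Tat−/Meth vs. Tat−/Sal (left) and Tat+/Meth vs. Tat−/Meth (right), 5 mice per group, filled at an adjusted p under 0.05, with a black bar at the list median, a dashed line at the median of all genes and grey over their middle 50%. The list medians lie within the grey band in both comparisons, and single genes such as Selp at -1.70 lie far outside it.

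Markers of other cells were read from the same arrays as the summed signal of each list, on a log2 scale, in which the brightest probes weigh most. Their counts for Tat−/Meth vs. Tat−/Sal stand beside 35% of all genes that passed as higher and 15.3% as lower. Taken singly, 24.7% of all genes did not overlap between these groups with higher values in Tat−/Meth, and 11.5% with lower ones. Summed microglia markers were 16.87 to 17.00 in Tat−/Meth and 17.43 to 17.80 in Tat−/Sal, with no overlap, and of 8 genes 2 passed as higher and 2 as lower. Its brightest probe, Itgam, fell by 1.07, whereas C1qa and C1qb rose by 0.36 and 0.35. Astrocyte markers, among which 5 of 10 passed as higher and 1 as lower, summed to 18.37 to 18.62 in Tat−/Meth and 18.47 to 18.75 in Tat−/Sal. The bright Aldoc fell by 0.36, while Gja1 rose by 0.84 and Sox9 by 0.43. The summed barrier transporters, which were 17.30 to 17.34 in Tat−/Meth and 17.01 to 17.17 in Tat−/Sal, did not overlap either. Red blood cell markers, which tell of blood left in the vessels, ranged from 15.55 to 16.31 (Tat−/Sal), 15.80 to 17.38 (Tat−/Meth), 15.72 to 16.73 (Tat+/Sal) and 15.09 to 16.39 (Tat+/Meth). Choroid plexus markers reached 13.98 to 14.12 on the highest array of 3 groups against medians of 12.42 to 12.70. Leukocyte markers were at 10.11 to 12.06 in Tat−/Meth and 10.64 to 11.02 in Tat−/Sal, and the B cell gene Ms4a1 was not well above background on any array. Markers of striatum were well above background on every array, 9 of 9 genes, whereas 5 or 6 of 8 markers of cortex and hippocampus were so on all arrays of a group. In Tat−/Meth vs. Tat−/Sal 2 of 9 striatal genes passed, both as lower, Penk by 0.30 and Rgs9 by 0.24. However, 6 of the 9 had positive values, and the list median was 0.07. Of 7 tested genes of cortex and hippocampus 2 passed, both as higher, Prox1 by 0.81 and Lamp5 by 0.45. No other gene of that list had a positive value, and its median was -0.17. Of the other lists, 1 of 5 red blood cell genes (Alas2, 0.89), 0 of 7 of choroid plexus, 1 of 6 of leukocytes, 1 of 10 genes of perivascular fibroblasts and meninges, 2 of 8 of oligodendrocytes and 3 of 8 of neurons passed as higher, and 1 leukocyte and 1 neuron gene as lower. The part of these cells in the values above was not tested.

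From mouse to mouse within the groups, Cldn5 was set against the other tested genes. Over the 20 arrays, after the group means were taken out, the Pearson r with the other 8 tested genes ran from -0.19 for Mfsd2a to 0.41 for Abcb1a, and none passed after adjustment over the 8 pairs by a two-sided permutation test (smallest adjusted p = 0.657). For Abcb1a Spearman's rho was 0.49 (permutation p = 0.0491, adjusted p = 0.393), and r was 0.36 without the 2 arrays farthest from the median of Cldn5, 0.53 within slide 2 and 0.71 within slide 3. Slide 1 with 5 arrays was too small for a value of its own. With median scaling r with Abcb1a was 0.71 (permutation adjusted p = 0.0118). Under that scaling, however, r was positive for all 8 genes, from 0.25 for Pecam1 upwards.

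Each tested gene was then set against all other genes. Of 15054 genes with a value on every array, the 3 most like Abcb1a by Pearson r of deviations from the group means were Adgrl4, an adhesion receptor of endothelial cells (r = 0.95), Slco1a4, an organic anion transporter of brain capillaries (0.90), and Cd2ap (0.87). For Slc2a1 they were Ramp2, the adrenomedullin co-receptor of endothelial cells (0.95), Paqr5 (0.92) and Fmo2 (0.91). For Mfsd2a they were Hrh3 (0.92), Fkbp5, a gene that responds to glucocorticoids (0.92), and Cdo1 (0.91). The most like Tjp1 were Ado (0.92), Nipa1 (0.86) and Edil3 (0.85), and the most like Ocln were Psmb2 (0.90), Ptbp2 (0.88) and Tcaim (0.87).

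Pecam1 was followed by Glp1r (0.90), Il22 (0.89) and Nt5c1a (0.89), Pdgfrb by Slc25a27 (0.88), Arhgap35 and Idnk (0.85 each), Mmp2 by Camk1 (0.84), Pcolce (0.82) and Srprb (0.80), and Cldn5 by Fhod1 (0.78), Srpk3 (0.78) and Tbx1 (0.76). On Tat−/Meth replicate 5 Pecam1 deviated by 0.74, and Glp1r, Il22 and Nt5c1a by 1.78, 1.14 and 1.31, each the largest deviation of its gene. All r values given here are the highest of many over 20 arrays that share their slides and scaling, and are given as a description.

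**Figure D5:**
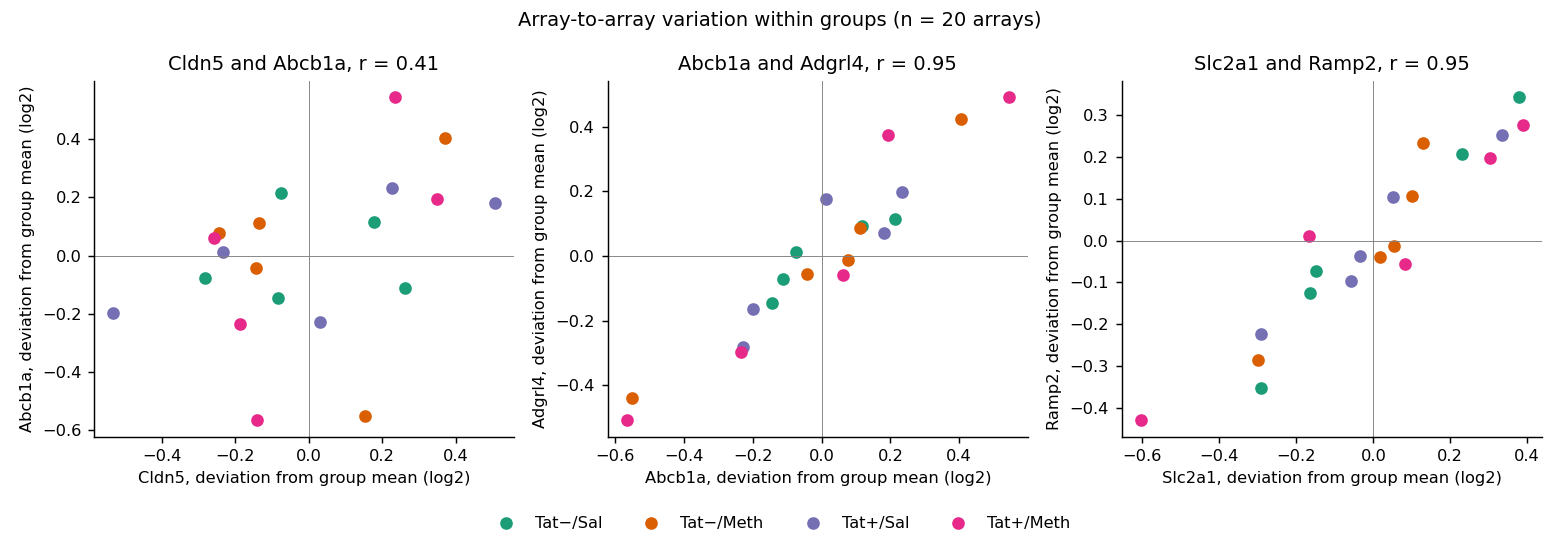
Deviation of each array from its group mean (log2 units, both axes) for Cldn5 and Abcb1a, Abcb1a and Adgrl4, and Slc2a1 and Ramp2, with 1 point per mouse and colours for the 4 groups. The points of Cldn5 and Abcb1a scatter (r = 0.41), and those of the other pairs follow a line (r = 0.95 for both).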

How the data were processed

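The deposited files hold intensities and flags per spot for each of 20 arrays in the form of Agilent Feature Extraction. Of these the processed, background-subtracted signal was the main value. The study's methods instead name the GenePix software for the spot signals. The series matrix of the authors also holds intensity values and was used as an alternative. Signals were taken as log2, each array's 75th percentile was subtracted and the mean of the percentiles was added back. Spots flagged as outliers were left out. Of 55681 probes 27656 got a gene symbol, through the RefSeq accession listed for each probe. The probe with the highest mean stood for its gene, and to be tested it needed 3 arrays per group and a group mean of 6 or more.

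Differences were tested with limma 3.58.1 (R 4.3.3) in 1 fit of all 4 groups, with Benjamini-Hochberg adjustment over 15102 genes. p-values measure the spread between the 5 arrays of a group, which the titles give as separate samples. Precision is limited by their number. Genes named are the 10 genes, per list up to 3 with the smallest adjusted p, and per tested gene the 3 most like it. The genes, lists and tests were chosen with earlier results of these data known. In a simulation of Tat−/Meth vs. Tat−/Sal on 15102 genes, with 200 changed by 1 log2 unit, 179 were recovered with 14 false calls. Recovery of smaller changes, such as the 0.26 to 0.55 log2 units of Tjp1, Ocln and Slc2a1, was not tested. A setting in which 50.3% of genes pass, as on the arrays, was not tested either. The effect of slide 1 on these counts was not tested. Correlations used 100000 permutations within groups in Python 3.11.15 with numpy 2.4.6, pandas 2.3.3, scipy 1.17.1 and matplotlib 3.10.9.

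As alternatives the arrays were left unscaled, scaled to the median or quantile-normalized, normexp was used with an offset of 50, and the series matrix was used (values below 1 set to 1). Genes were filtered by the well-above-background call or not at all, and probes were averaged or tested singly. Further alternatives were slide as a fixed or random block, single slides, only the groups compared, the methods' t-test, limits of 2-fold and 3-fold, a replicate block, and leaving out arrays one by one. No protein sequences were used here.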

Additional observations from a re-analysis of the deposited data

Results flagged for a closer look

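The interaction of Meth and Tat passed the test for Ocln, at -0.69 log2 units for the effect of Meth with Tat less that without Tat (adjusted p = 0.0419, limma). The call was lost when any of 11 arrays was left out, with quantile normalization (adjusted p = 0.0648), median scaling (adjusted p = 0.0560) and no scaling (-0.21, adjusted p = 0.622), the second Ocln probe gave 0.13, and the Tat−/Meth arrays were those of slide 1. Ocln was higher in 5 of 5 Tat−/Meth arrays than in any Tat−/Sal array, while the Tat+ groups overlapped.

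Among 44 sets of 5 arrays (11 probes in 4 groups), 4 held an array whose gap to the others, as a share of the range of the set, was above Dixon's critical value, where chance gives about 1 in 20. In Tat−/Sal, replicate 5 was low for both Ocln probes, at 6.72 with the others between 7.19 and 7.27, and at 4.80 with the others between 5.38 and 5.60. Mfsd2a in Tat−/Sal replicate 3 was 12.62, with the others between 12.09 and 12.15. Slc2a1 in Tat−/Meth replicate 5 was 14.05, with the others between 14.36 and 14.47.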

How the results depend on the processing

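In Tat−/Meth vs. Tat−/Sal 3 of 9 genes passed, but 1 after median scaling and 5 with normexp, which lifted Mmp9 over the signal limit. Of all genes 4250 of 15121 and 10808 of 20969 passed under these settings. In the interaction 1 passed, but 0 after quantile normalization, median scaling, without a filter or with the mean over probes, and 3 with normexp. Without scaling the 1 was Pecam1 (0.64) and not Ocln (-0.21). Of all genes 5438 of 15102 passed in the interaction. Under the settings just named it was 5707 of 15093, 2564 of 15121, 5292 of 20970, 5014 of 14737, 6893 of 20969 and 5953 of 15121, in this order. In Tat+/Sal vs. Tat−/Sal 0 passed, but 1 (Tjp1) after quantile normalization, with slide as a random block or with the replicate block. Of all genes 488, 2326 and 553 passed under these settings, in place of 214. Above 2-fold or 3-fold the count was 0 in each comparison. With each array left out in turn the counts ran from 2 to 4 for Meth without Tat, 3 to 4 in Tat+/Meth vs. Tat−/Meth, 0 to 1 in Tat+/Sal vs. Tat−/Sal and 0 to 1 in the interaction. Those of Tat+/Meth vs. Tat−/Meth include Mmp2 where it passed. Of the correlations with Cldn5 0 passed, but 1 after median scaling. By the methods' t-test with Benjamini-Hochberg adjustment the count was 3 for Meth without Tat, 4 for Tat with Meth and 0 for Tat with saline. Of all 15102 genes 7244, 7490 and 11 passed by that test. The 4 include Mmp2, which reached the signal limit only through Tat−/Meth. The cause of these shifts was not tested.

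Without scaling these values changed sign in Tat−/Meth vs. Tat−/Sal: Mfsd2a -0.21, Tjp1 -0.16, Cldn5 -0.32, Pdgfrb -0.21, Mmp2 -0.12, Ctnnd1 -0.10, Lsr -0.053, Cspg4 -0.14 and Art3 -0.12. The same held in Tat+/Meth vs. Tat−/Meth for Mfsd2a 0.20, Cldn5 0.19 and Pdgfrb 0.26, and in the interaction for Tjp1 0.34 and Cldn5 0.10. The mean over probes turned Axin2 to 0.51. The Pearson r with Cldn5 turned for Mmp2 to -0.086 after quantile normalization, for Tjp1 to 0.48, Slc2a1 to 0.32 and Mfsd2a to 0.32 after median scaling, and for Tjp1 to 0.32 and Slc2a1 to 0.090 without scaling. With arrays left out, Mfsd2a in Tat+/Meth vs. Tat−/Meth ran from -0.23 to 0.0014, and r from -0.16 to 0.37 for Mmp2, -0.087 to 0.28 for Pdgfrb and -0.25 to 0.022 for Slc2a1. Of 28 other values of the 9 genes, 20 changed sign and 2 passed (Pecam1 and Mmp2 in the interaction) under at least 1 alternative.

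Whether arrays of the same number are paired was not settled. Their deviations correlated from -0.18 to 0.36, above 0.1 in 8 of 30 pairs, and 8 of 20 arrays correlated best with their own number. With the replicate block the counts were 3 for Meth without Tat, 4 for Tat with Meth and 1 for Tat with saline. The 4 include Mmp2, which reached the signal limit only through Tat−/Meth. Of all 15102 genes 7940, 8497 and 553 passed in that fit, in place of 7589, 8220 and 214. Slide as a fixed block could not be fitted for comparisons with Tat−/Meth. Signal over background limits Mmp9, Mmp2 and the second Ocln probe.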
